A study of Mus musculus with 8 samples.

Results

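Border macrophages are the resident macrophages of the brain's edges, the meninges, the perivascular spaces and the choroid plexus. Like the microglia of the parenchyma they carry CD11b, so an isolation on that surface protein takes both. They are told apart from microglia by scavenger and uptake receptors and by a small set of secreted factors and enzymes. The genes described here are 9 such markers, Mrc1, Cd163, Stab1, Lyve1, Folr2, Pf4, F13a1, Cd38 and Cbr2. Their open chromatin was read from every ATAC-seq peak that the deposited table assigns to one of them, which is the gene with the nearest start site. ATAC-seq marks open chromatin by the places where a transposase inserts adapters, and each sequenced insertion counted here is called a tag. These 9 genes held 29 of the 67822 listed peaks, spread over 8 of the 16095 genes with a peak. Cd38 held none.

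The libraries came from CD11b-positive cells of dissociated, myelin-depleted mouse forebrain. Wild-type C57BL/6N animals were compared with animals that lack Cias1, the older name of Nlrp3, a line the submitters call Nlrp3-/- and credit to Millennium Pharmaceuticals. NLRP3 is the sensor of an inflammasome, and the comparison asks how its loss alters accessible chromatin in microglia. Each genotype had 4 libraries. Age and sex, the construct, the handling of the meninges and whether each library came from its own animals are not stated in the labels, so p-values measure the spread between these libraries, which may be technical in part.

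The libraries held 11325865 to 15521580 tags. The share of tags inside peaks was 9.79% to 17.5% in wild type, but 6.68% and 4.96% in knockout replicates 1 and 2 and 20.9% and 26.2% in knockout replicates 3 and 4. The knockout group therefore held both the shallowest and the deepest libraries in peaks. Tags in chromosome Y peaks numbered 88 to 255 in knockout replicate 3 and wild-type replicates 3 and 4 and 1 to 13 in the others. The 2 promoter peaks of Nlrp3 together had 112 to 149 tags across the wild-type libraries and 0, 0, 1 and 2 in knockout replicates 1 to 4, so each library carried the tags of its labelled genotype. Levels are given as CPM, counts per 1000000 tags in tested peaks after TMM scaling, and fold changes as log2 of knockout over wild type.

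A listed peak at the promoter was the exception among these genes. Whether promoters without a listed peak were closed was not tested. A promoter peak was listed for 3 of the 9, Mrc1, Pf4 and Stab1. That is 3 of the 8 members with a peak, while 66.5% of all genes with a peak had a promoter peak. The 250 bases before the start of each are shown from RefSeq (GRCm38.p6, the assembly behind mm10), with the bases inside the listed peak in capitals. The promoter of Cd38, which has no peak, is set beside them and has no capitals.

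Mrc1 (chr2:14229164-14229413, plus strand): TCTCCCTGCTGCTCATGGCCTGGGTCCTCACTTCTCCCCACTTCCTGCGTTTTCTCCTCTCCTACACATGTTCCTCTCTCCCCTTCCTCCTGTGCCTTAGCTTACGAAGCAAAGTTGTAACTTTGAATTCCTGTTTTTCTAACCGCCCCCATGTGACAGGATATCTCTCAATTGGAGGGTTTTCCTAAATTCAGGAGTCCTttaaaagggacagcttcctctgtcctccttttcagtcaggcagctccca
Pf4 (chr5:90772185-90772434, plus strand): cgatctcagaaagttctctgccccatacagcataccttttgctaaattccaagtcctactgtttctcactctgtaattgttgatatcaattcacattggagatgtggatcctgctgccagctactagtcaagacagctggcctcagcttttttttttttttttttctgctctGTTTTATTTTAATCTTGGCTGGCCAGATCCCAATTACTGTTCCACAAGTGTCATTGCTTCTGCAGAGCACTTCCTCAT
Stab1 (chr14:31168642-31168891, minus strand): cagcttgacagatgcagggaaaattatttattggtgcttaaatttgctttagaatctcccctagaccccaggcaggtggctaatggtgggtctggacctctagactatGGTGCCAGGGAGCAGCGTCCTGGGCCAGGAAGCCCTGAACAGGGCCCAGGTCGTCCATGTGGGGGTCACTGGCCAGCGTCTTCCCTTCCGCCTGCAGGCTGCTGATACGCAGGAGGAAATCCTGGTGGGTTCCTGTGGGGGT
Cd38 (chr5:43868559-43868808, plus strand): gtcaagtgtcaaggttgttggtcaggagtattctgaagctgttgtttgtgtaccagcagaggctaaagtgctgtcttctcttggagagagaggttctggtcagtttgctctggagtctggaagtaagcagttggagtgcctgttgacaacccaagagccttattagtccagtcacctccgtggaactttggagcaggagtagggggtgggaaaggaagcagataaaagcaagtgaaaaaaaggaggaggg

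The peaks covered 201 of these bases at Mrc1, 142 at Stab1 and 78 at Pf4. The windows were searched on both strands for the letters of 6 motifs. Among them, GAGGAAGT is a site of the PU.1 type, PU.1 being the ETS factor of myeloid cells. The Pf4 promoter held it on the minus strand, beginning 10 bases before the start and inside the peak, as did 2.44% of the 32851 promoters searched. The letters CCGCCC of a GC box, present in 32.7% of promoters, lay 108 bases before the Mrc1 start, also inside the peak. AP-1 letters, TGANTCA, were held by 6.75% of promoters and lay 74 bases before one of the 2 Folr2 starts, outside any peak. The MAF-type letters TGCTGAC, held by 3.81% of promoters, were not found in the window of any member. The same was true of the E-box letters CACGTG, held by 6.02%. The letters TATAAA of a TATA box, held by 12.4%, were not found either. The table of promoters had an entry for 8 of the 9 genes.

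Most of the peaks lay away from the starts of these genes. By the deposited annotation, 11 of the 29 were intronic, 7 intergenic, 3 exonic, 3 in a 3′ UTR, 2 at transcript ends and 3 at promoters, so promoters made up 3 of 29 against 19.5% of all listed peaks. Only 13 of the 29 overlapped the gene they were assigned to. Another 8 lay inside a neighbouring gene and 8 outside any gene, and peaks inside the assigned gene held 48.7% of the 5401 tags counted over all members and libraries. Of the 29, 6 sat in annotated repeats, 4 of LTR and 2 of LINE type. The 210 to 432 bp of peak width bracketed a median of 275 bp. The union list took 20 of the 29 from both of the authors' peak lists, while 75.5% of all listed peaks came from both. Another 8 came from the wild-type list alone and 1 from the knockout list alone. The shares of all listed peaks from either list alone were not counted, so the 8 and 1 have no background here. After the filter on low counts, 26 peaks and 7 genes were tested. The median level of these 26 was 34.5 CPM per kb of peak, against 40.1 over all tested peaks, and 11 of the 26 lay above that median.

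**Figure D1:**
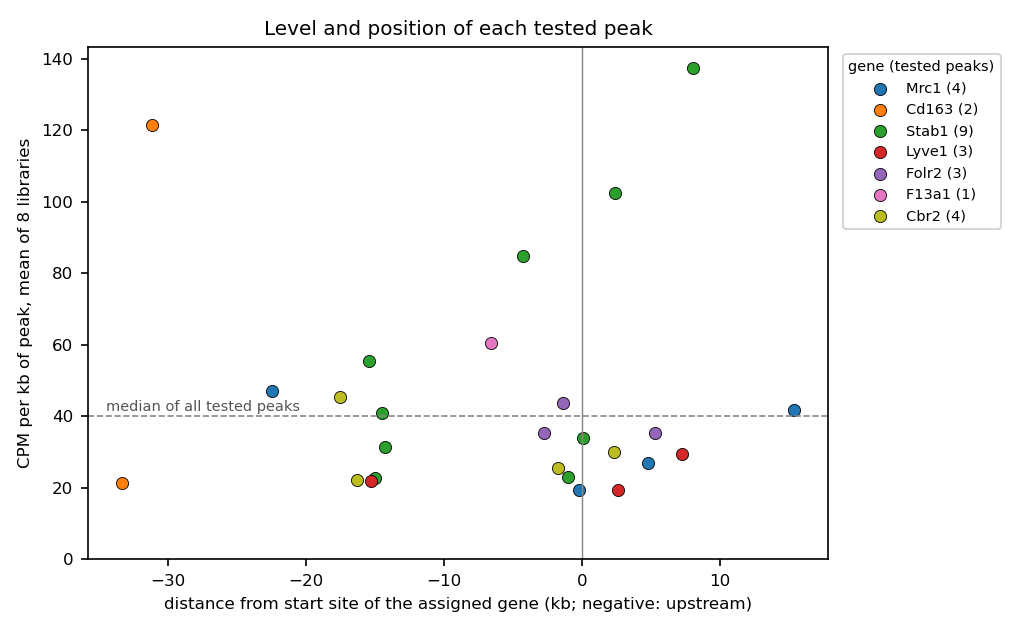
Level of each of the 26 tested peaks (CPM per kb of peak, mean of 8 libraries) against its distance from the start site of its assigned gene in kb, coloured by gene; the dashed line is the median of all tested peaks, 40.1. The 3 highest peaks lie 8.0 and 2.4 kb inside Stab1 and 31.2 kb upstream of Cd163.

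None of the tested peaks or gene sums of these markers differed between knockout and wild type beyond the spread between libraries. By edgeR's quasi-likelihood test, 0 of 26 peaks passed (smallest adjusted p = 0.843) and 0 of 7 genes passed (smallest adjusted p = 0.857). Across every feature tested, 0.17% of 58135 tested peaks and 0.213% of 15476 tested genes passed, a background at which so few members would hold no call. At an unadjusted p under 0.05 there was 1 of the 26 peaks, against 4.83% of all tested peaks, and 0 of the 7 genes, against 5.96% of all tested genes. DESeq2 called 0 peaks and 0 genes as well, with 0 of either at an unadjusted p under 0.05. No member peak or gene had genotypes that did not overlap, a pattern seen in 3.17% of all tested peaks and 3.46% of all tested genes. Of the 26 peak estimates 16 were above 0 and 10 below, with a median of 0.05 against 0.0037 over all tested peaks. For all 7 genes the 95% interval of the fold change lay within 2-fold in both directions. The same held for 20 of the 26 peaks, and the intervals of the other 6 did not exclude a 2-fold change. In a bulk sample, fewer border macrophages and less accessibility in each of them cannot be told apart.

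**Figure D2:**
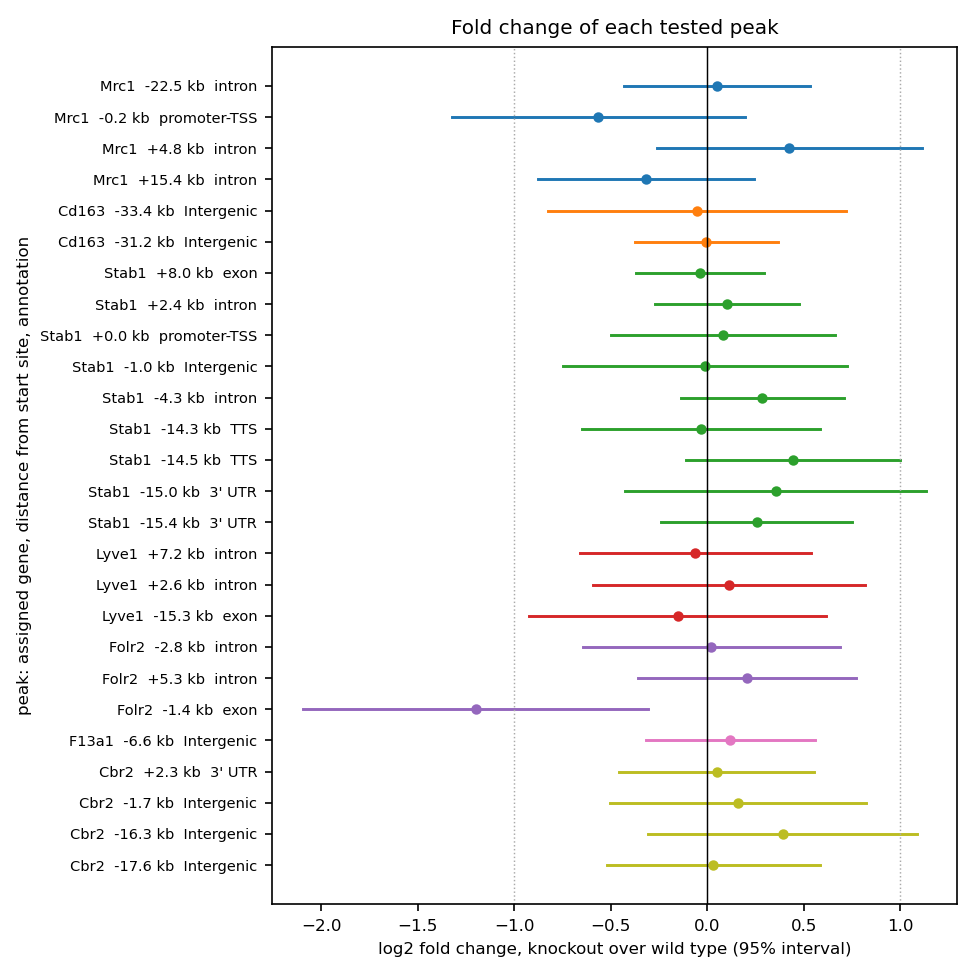
Log2 fold change of knockout over wild type for the 26 tested peaks, with 95% intervals computed from edgeR's F statistic. Each line names the assigned gene, the distance from its start site and the annotation, and dotted lines mark 2-fold. The exon-annotated Folr2 peak, 1.4 kb upstream, is the 1 interval that does not reach 0.

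Levels of the 7 tested genes were compared per kb of their peaks. Cd163 had 70.3 ± 13.2 CPM per kb (SD over 8 libraries), F13a1 58.2 ± 14.5, Stab1 54.5 ± 6.90, Folr2 36.6 ± 9.72, Mrc1 31.9 ± 3.69, Cbr2 29.1 ± 2.75 and Lyve1 23.2 ± 5.76. The median of all tested genes was 45.2. Neighbours in this order differed by less than the larger of their SDs, except at the steps from Stab1 down to Folr2 and from Cbr2 down to Lyve1. The leading positions of Cd163 and F13a1 rest on peaks outside the genes.

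The scavenger receptors come first. Mrc1 encodes the mannose receptor CD206, which takes up glycoproteins with terminal mannose (chr2:14229414-14332023). Its promoter peak (chr2:14229076-14229364) was among the faintest tested, at 19.5 CPM per kb, above only 4.58% of tested peaks. It held 15, 9, 10 and 13 tags in wild-type replicates 1 to 4 and 4, 5, 7 and 13 in knockout replicates 1 to 4. Scaled, that was 6.38 ± 0.76 CPM in wild type (SD, n = 4) and 4.87 ± 1.82 in knockout. Knockout replicate 2, at 7.38 CPM, lay above 3 of the wild-type libraries, and the fold change was -0.56 (SE 0.37, interval -1.32 to 0.19). The intron 3 peak (chr2:14244693-14244917) had a fold change of -0.32 (SE 0.27). The intron 1 peak (chr2:14234061-14234327), in an LTR repeat, had 0.43 (SE 0.33), so estimates went both ways within the gene. The highest of the 4 by CPM (chr2:14206819-14207085) lies in intron 3 of the neighbouring gene Tmem236, with 12.1 ± 1.37 CPM in wild type and 13.01 ± 1.13 in knockout.

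Summed over the 4 peaks, Mrc1 had 37.5, 31.1, 29.8 and 34.5 CPM in wild-type replicates 1 to 4 and 34.2, 39.1, 33.9 and 27.5 in knockout replicates 1 to 4. The knockout libraries spanned the wild-type range on both sides, and the fold change was -0.05 (SE 0.16, interval -0.37 to 0.27). A further 3 peaks inside Mrc1 are assigned by the table to Mir511, the microRNA gene that Mrc1 hosts, since its start is nearer. The strongest (chr2:14249921-14250137, Mrc1 intron 4) had 20.6 ± 4.61 CPM in wild type and 16.4 ± 8.53 in knockout, with knockout replicates 1 and 2 at 10.9 and 7.38 and replicates 3 and 4 at 24.6 and 22.6. Its neighbour in the same intron (chr2:14250259-14250467) went the other way in those libraries, with 14.5 and 17.7 CPM in knockout replicates 1 and 2 and 3.51 and 5.82 in replicates 3 and 4. Knockout replicates 1 and 2 are the libraries with the lowest share of tags in peaks, and the part of that share in these values was not tested. Neither peak nor the one in intron 15 (chr2:14295420-14295682) passed, with fold changes of -0.13, 0.42 and 0.39.

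Cd163 encodes the receptor that clears haemoglobin bound to haptoglobin (chr6:124304636-124330529). No listed peak fell within its 25.9 kb, and both of its peaks lay over 31 kb upstream, in intergenic sequence. The one at chr6:124273313-124273591 was strong, at 122 CPM per kb, above 89.8% of tested peaks. It had 38.3, 30.2, 28.5 and 41.0 CPM in wild-type replicates 1 to 4 and 35.0, 23.6, 38.2 and 36.6 in knockout replicates 1 to 4. Only knockout replicate 2 lay below the wild-type range, and the fold change was -0.0036 (SE 0.18, interval -0.37 to 0.36). The fainter peak at chr6:124271145-124271405, with 2 to 14 tags per library, had a fold change of -0.053 (SE 0.38). Over both, Cd163 had 38.2 ± 7.29 CPM in wild type and 37.7 ± 8.05 in knockout, a fold change of 0.01 (SE 0.16).

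Stab1, which encodes stabilin-1, an endocytic scavenger receptor (chr14:31139017-31168651), held 11 of the 29 peaks and 47.9% of the members' tags. The 5 peaks that overlap it accounted for 1663 of its 2588 tags. The other 6 lay upstream, 5 in Nisch and 1 between the genes, and bear Stab1's name only because its start is the nearest. The exon 12 peak (chr14:31160449-31160811), which also overlaps Gm52148, was the strongest of all members, at 137 CPM per kb, above 92.2% of tested peaks. It had 64.1, 44.3, 47.8 and 48.0 CPM in wild-type replicates 1 to 4 and 55.5, 35.4, 47.0 and 56.9 in knockout replicates 1 to 4, a fold change of -0.04 (SE 0.16). The intron 1 peak (chr14:31166033-31166464) had 43.7 ± 2.20 CPM in wild type. In knockout it had 44.9 ± 16.1, where replicate 2 stood at 22.1 and the others at 44.8 to 56.7.

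At the Stab1 start (chr14:31168428-31168783) the promoter peak was weaker than both, at 33.8 CPM per kb. Its values were 10.4, 14.8, 10.2 and 11.6 CPM in wild type and 14.5, 11.8, 6.15 and 16.8 in knockout. Knockout libraries held both the lowest and the highest value, and the fold change was 0.08 (SE 0.28, interval -0.50 to 0.66). The smallest p among the Stab1 peaks fell to one at the end of a Nisch transcript (chr14:31183048-31183302), with 9.003 ± 2.33 CPM in wild type and 11.9 ± 2.70 in knockout. Its fold change was 0.44 (SE 0.27, unadjusted p = 0.112 by edgeR). Summed, Stab1 had 191, 165, 148 and 162 CPM in wild type and 209, 159, 160 and 198 in knockout, a fold change of 0.13 (SE 0.098, interval -0.076 to 0.33). With 2588 tags it was the most precisely measured of these genes. A pair of faint intronic peaks of Stab1, with 2 to 12 tags per library, fell under the filter on low counts.

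Lyve1 encodes a receptor for hyaluronan that also marks lymphatic endothelium (chr7:110850607-110862953). Its peaks in intron 3 (chr7:110855527-110855912) and intron 1 (chr7:110860156-110860460) lie in the gene, and the last is in exon 18 of Mrvi1 (chr7:110878120-110878374). All were faint, at 29.5, 19.2 and 21.7 CPM per kb, and Lyve1 as a whole stood above 7.77% of tested genes. The intron 3 peak had 8.45, 9.84, 12.5 and 14.4 CPM in wild type and 6.03, 19.2, 7.90 and 12.6 in knockout, so that knockout libraries lay on both sides of the wild-type range. Fold changes were -0.061 (SE 0.29), 0.11 (SE 0.34) and -0.15 (SE 0.37) in that order. The sum was 21.6 ± 3.64 CPM in wild type and 22.2 ± 7.47 in knockout, a fold change of -0.021 (SE 0.21, interval -0.46 to 0.42).

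Folr2, the gene of folate receptor beta (chr7:101839988-101857190), had the largest estimate of the 7 genes and the 1 peak with an unadjusted p under 0.05. That peak (chr7:101858438-101858701) lies outside Folr2, in exon 7 of the adjacent Folr1. It held 17, 25, 8 and 77 tags in wild-type replicates 1 to 4 and 7, 1, 14 and 30 in knockout replicates 1 to 4. In CPM these were 8.45, 17.6, 4.55 and 35.9 against 8.45, 1.48, 6.15 and 9.70. Wild-type replicate 4 stood far above the other 7 libraries, and the remaining wild-type values overlapped those of knockout. The fold change was -1.20 (SE 0.44, unadjusted p = 0.0104, adjusted p = 0.843 by edgeR). Without wild-type replicate 4 it was -0.44 (unadjusted p = 0.288), and with robust moderation the unadjusted p was 0.155. With any other library left out it stayed between -1.54 and -1.05, with unadjusted p from 0.00069 to 0.032 by edgeR, and the adjusted p was 0.315 or higher in each of these fits.

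Within Folr2 itself, the genotypes overlapped at both intron 2 peaks assigned to it. The one at chr7:101851733-101851999 had 8.69 ± 1.17 CPM in wild type and 10.1 ± 2.59 in knockout (fold change 0.21, SE 0.28). The one at chr7:101847959-101848233, in an LTR repeat, had 8.97 ± 3.54 and 10.5 ± 3.66 (fold change 0.021, SE 0.32). A further peak inside Folr2 (chr7:101840085-101840312) is assigned to Inppl1. It held 3 to 10 tags per library and was not tested. The sum over the 3 peaks assigned to Folr2 was 30.7, 31.8, 21.8 and 46.9 CPM in wild type and 27.1, 28.9, 22.8 and 25.96 in knockout. The fold change of this sum, -0.38 (SE 0.20, interval -0.78 to 0.032), shrank to -0.13 without wild-type replicate 4. It grew to -0.53 without wild-type replicate 3 (unadjusted p = 0.0093, adjusted p = 0.960 by edgeR).

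The secreted factors follow. Pf4 encodes the chemokine CXCL4 of platelets and macrophages (chr5:90772435-90773383), and its promoter peak (chr5:90772357-90772636) was its only one. It held 9, 8, 11 and 5 tags in wild-type replicates 1 to 4 and 3, 5, 7 and 12 in knockout replicates 1 to 4, and was not tested for low counts. These tags are not scaled for depth. All tags in peaks numbered from 709738 in knockout replicate 2 to 3252424 in knockout replicate 4. Fitted without the filter on low counts, the fold change was -0.18 (SE 0.43, interval -1.06 to 0.70), which leaves a change of over 2-fold downward within the interval. F13a1 encodes the A subunit of coagulation factor XIII, a transglutaminase that cross-links fibrin (chr13:36867178-37050244). No listed peak fell within its 183 kb, and its single peak lay 6.6 kb upstream (chr13:37056664-37057069). That peak had 26.8, 18.97, 17.6 and 30.7 CPM in wild type and 16.9, 31.0, 23.7 and 30.4 in knockout. The wild-type and knockout libraries overlapped over nearly their whole ranges, and the fold change was 0.12 (SE 0.21, interval -0.32 to 0.56).

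The enzymes complete the set. Cd38 encodes an ectoenzyme that consumes NAD (chr5:43868809-43912374), and the nearest listed peak lay 49803 bases from the gene, assigned to Bst1, its paralog. With no listed peak in these libraries, Cd38 gave no value to compare. Cbr2 encodes carbonyl reductase 2 (chr11:120729485-120732025) and had 4 peaks. The peak in exon 8, annotated as 3′ UTR (chr11:120729496-120729916), had 11.9, 9.14, 14.8 and 12.1 CPM in wild type and 15.7, 14.8, 11.9 and 11.0 in knockout (fold change 0.051, SE 0.25). The upstream peaks at 1.7 kb (chr11:120733552-120733900) and 16.3 kb (chr11:120748168-120748443) lie in LTR repeats of the ERVK family. Their fold changes were 0.16 (SE 0.32) and 0.39 (SE 0.34). Scaled for depth, the second stood at 2.41 and 5.91 CPM in knockout replicates 1 and 2, from 2 and 4 tags. Knockout replicates 3 and 4 stood at 8.34 and 9.38 CPM, from 19 and 29 tags. The wild-type libraries lay between 4.97 and 6.26 CPM at this peak. A last peak 17.6 kb upstream (chr11:120749439-120749705) had 12.8 ± 2.94 CPM in wild type and 11.3 ± 5.21 in knockout, where replicate 2 stood at 4.43. In sum Cbr2 had 36.8 ± 3.69 CPM in wild type and 39.7 ± 3.38 in knockout, a fold change of 0.13 (SE 0.14, interval -0.16 to 0.42).

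Cbr2 is also the member closest to a peak that did change. A peak assigned to P4hb (chr11:120571135-120571465) was higher in knockout by 1.71 on the log2 scale and passed the test, 158 kb from Cbr2, and none of the 4 Cbr2 peaks followed it past the threshold. The nearest changed peaks to F13a1, Cd163 and Lyve1 were 1.14, 2.42 and 3.36 Mb away, and those to Folr2, Pf4 and Cd38 12.4, 19.2 and 66.1 Mb away. No peak passed on the chromosomes of Mrc1 and Stab1.

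**Figure D3:**
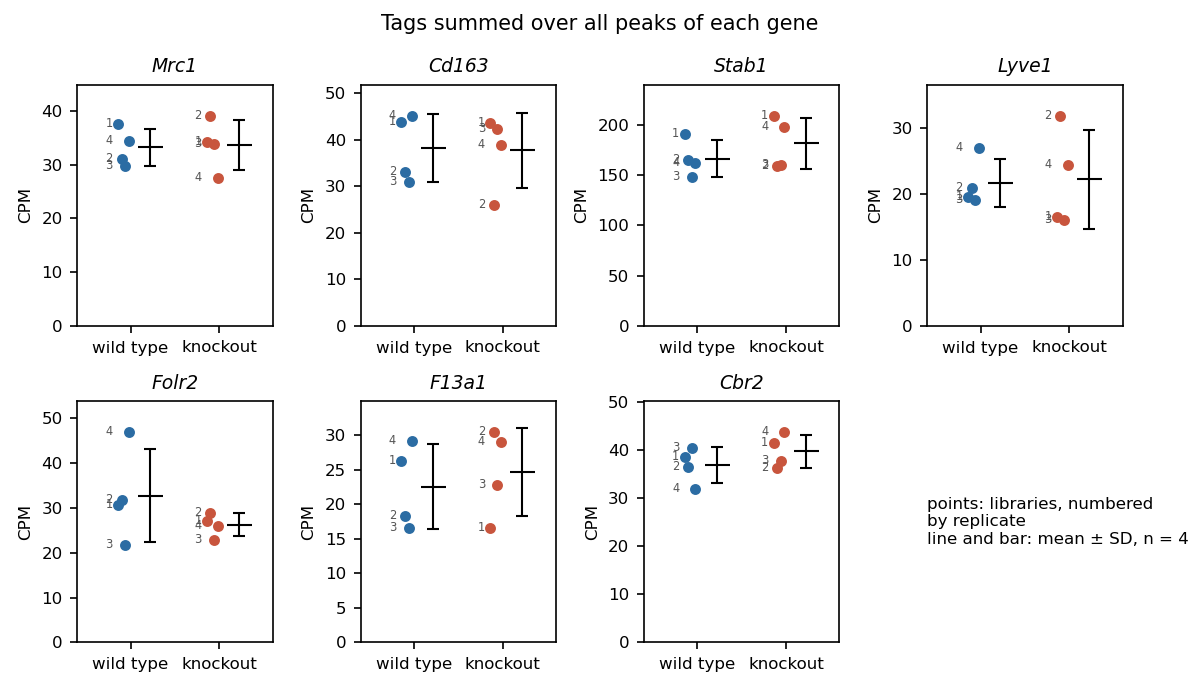
CPM summed over all peaks of each of the 7 tested genes, by genotype, with each library as a point numbered by replicate and the mean ± SD (n = 4) as a line and bar; each axis starts at 0. The genotypes overlap for every gene shown, and wild-type replicate 4 stands apart at Folr2 with 46.9 CPM.

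Among libraries, knockout replicates 1 and 2 gave the highest value most often, at 7 and 6 of the 26 tested peaks (26.9% and 23.1%), and the lowest at 4 and 6. Over all tested peaks they gave the highest value at 16.8% and 20.8% and the lowest at 17.6% and 21.7%. Knockout replicate 2 was the lowest library at each of the 3 strongest peaks, those of Stab1 exon 12, Cd163 and Stab1 intron 1, and has the lowest share of tags in peaks, 4.96%. The part of that share in these values was not tested. Without knockout replicates 1 and 2, 0 of 28 tested member peaks and 0 of 8 genes passed.

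Against the markers of microglia, the border macrophage genes had fewer peaks per gene and fewer promoter peaks. Of 16 microglial markers such as P2ry12, Tmem119, Sall1 and Cx3cr1, all had a peak and 14 a promoter peak, with 191 peaks in all. Their tags summed to 3073 to 3358 per 1000000 tags in peaks in the wild-type libraries and 3204 to 3534 in the knockout libraries. The border macrophage genes summed to 320.1 to 387.6 and 337.6 to 389.2, and without Stab1 to 168.5 to 218.5 and 177.9 to 194.4. The median level per kb of peak was 53.3 CPM over the microglial genes and 36.6 over the 7 tested border macrophage genes. The means of the border macrophage sums were 358.1 ± 32.3 in wild type and 364.7 ± 25.1 in knockout, a difference smaller than either SD.

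Sums of the other cell types' markers lay above and below that of the border macrophage genes. In wild type, 7 monocyte markers summed to 276.2 to 381.9 per 1000000 tags in peaks, with 1 promoter peak, 6 endothelial and mural markers to 449.0 to 506.7 with 3, and 5 astrocyte markers to 320.3 to 397.2 with 2. Neuronal markers summed to 65.7 to 75.2, granulocyte markers to 37.2 to 44.7, lymphocyte markers to 174.7 to 206.1 and oligodendrocyte lineage markers to 411.2 to 451.0. In knockout these were 226.7 to 435.4 for monocytes, 442.4 to 461.9 for endothelial and mural cells and 355.1 to 513.5 for astrocytes. For neurons, granulocytes, lymphocytes and oligodendrocyte lineage they were 54.1 to 93.0, 32.0 to 40.0, 177.1 to 226.8 and 416.9 to 496.5. No gene of any of these lists passed the test. Granulocyte and lymphocyte lists had a peak at 3 of 8 and 2 of 8 genes and no promoter peak. Several of the cell type sums rested largely on 1 gene. Slc1a3 held 21 of the 28 astrocyte peaks, with 300 ± 39.4 CPM in wild type. Mbp held 19 of the 31 oligodendrocyte lineage peaks (335 ± 15.2) and Klrb1c 9 of the 12 lymphocyte peaks (165 ± 10.3). Among monocyte markers, Ly6c2 had 135 ± 52.2 CPM in wild type and 136 ± 102 in knockout. Only the border macrophage sum was also taken without its largest gene.

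**Figure D4:**
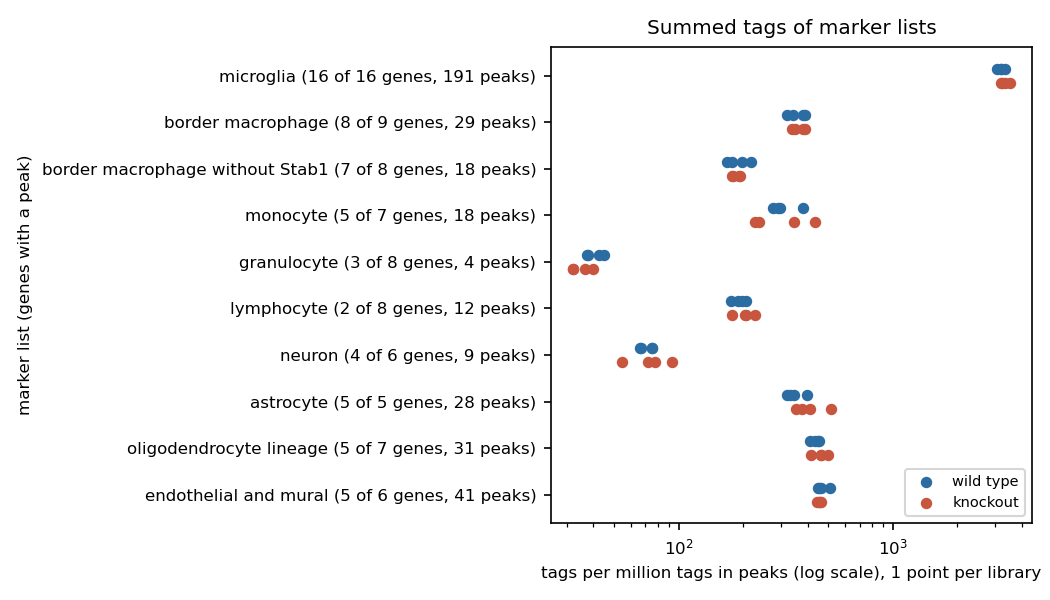
Summed tags of each marker list per 1000000 tags in peaks (log scale), 1 point per library, with wild type above and knockout below; each label gives the genes with a peak and the number of peaks. The border macrophage list lies between 320.1 and 389.2 in all 8 libraries, under the microglial list of more genes and peaks.

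A wider list of 48 genes linked to border macrophages and related myeloid cells also held no call. Of these, 43 had a peak and were tested, 31 had a promoter peak, and 0 passed (smallest adjusted p = 0.662 by edgeR). Estimates were above 0 for 27 genes and below for 16, with a median of 0.033 against 0.0020 over all tested genes. Their 269 peaks summed to 3652 to 3935 per 1000000 tags in peaks in wild type and 3653 to 3937 in knockout. That is above the sums of the microglial markers, a smaller list of 16 genes and 191 peaks. The median level per kb of peak was lower, at 46.3 CPM against 53.3 over the microglial genes. At an unadjusted p under 0.05 there were 4 of the 43 genes, against 5.96% of all tested genes, all 4 with higher estimates in knockout. Among the 16 microglial genes there were also 4, of which 3 had higher and 1 lower estimates in knockout. Ms4a7, a tetraspan protein of macrophages, had 18.9 ± 4.06 CPM in knockout and 12.02 ± 2.26 in wild type (fold change 0.60, SE 0.23). Its single peak held 11 to 60 tags per library. Colec12, a scavenger receptor with a collectin domain, had 8.69 ± 5.37 and 2.76 ± 3.57 at its single peak (fold change 1.68, SE 0.64). That peak held 2 to 35 tags per library. Clec12a, an inhibitory lectin receptor with 9 to 46 tags per library, had 15.8 ± 4.80 and 9.46 ± 3.23 (fold change 0.68, SE 0.29). Slamf9, a SLAM family receptor, had 172 ± 9.99 and 149 ± 14.4 (fold change 0.21, SE 0.088). Maf, a transcription factor of macrophages with 44 peaks, had a fold change of -0.011 (SE 0.074). Genes with no peak were Ms4a4a, Cd209f, Timd4, Ccl8 and Fcna.

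The tags of the 9 genes summed gave 392, 342, 312 and 379 CPM in wild-type replicates 1 to 4 and 392, 359, 339 and 391 in knockout replicates 1 to 4. The means were 356 ± 36.2 and 370.2 ± 25.9. Of 7387 other genes with at least 50 tags per library on average and 3 or more peaks, those with the most similar profile over the 8 libraries were Psmd1, Mir7086 and 4933433H22Rik. Their log2 CPM, centred on its mean, differed from that of the sum by a root mean square of 0.047, 0.047 and 0.049, against a median of 0.18 over all 7387.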

How the data were processed

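ATAC-seq libraries were made from CD11b-positive forebrain cells taken on magnetic beads, with fragments of 165 to 250 bp sequenced for 51 cycles, per the labels' protocols. Raw tag counts per peak and library were deposited for a list merged from a wild-type and a knockout IDR list, counted by HOMER on mm10 with at most 3 tags per position, per the file headers. The submitters' processing notes also name Bowtie2 and DESeq2. A second deposited signal table holds the same counts scaled by the authors to 10000000 tags per library. It equalled the scaled raw counts within 0.005 and was not used further. The 117 peaks without a gene held 0.13% of tags in peaks.

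Peaks, and counts summed per gene, were tested with edgeR 4.0.16 in R 4.3.3. The quasi-likelihood test used TMM scaling, a minimum count of 10, all 8 libraries with genotype as the only term, and Benjamini-Hochberg adjustment over all tested features with a threshold of 0.05. Intervals are 95%. DESeq2 1.42.0 and the other alternatives are in the closing section. The fits were tested on simulated data. The rule for naming took each member's peak nearest the start, highest in CPM or smallest in p, and the 3 genes with the most similar profile. Other peaks and genes given with values were chosen after their values were seen. Members, marker lists and motifs were chosen with earlier results of these data known.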

Additional observations from a re-analysis of the deposited data

Results flagged for a closer look

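Of 66 groups of 4 libraries looked at, 1 held a library far from the others, where chance would give about 1 in 20. At the Stab1 peak in the 3′ UTR of Nisch (chr14:31183973-31184208), wild-type replicate 1 had 16.9 CPM and the other wild-type libraries 10.2 to 10.7. The knockout libraries had 10.9 to 15.9 CPM at this peak. Wild-type replicate 4 at the Folr2 peak in Folr1, with 35.9 CPM, did not reach the same limit.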

How the results depend on the processing

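No member peak or gene passed under any alternative run (RLE size factors, scaling to all tags, DESeq2, no filter on low counts, robust moderation, the replicate block, each library left out in turn, knockout replicates 1 and 2 left out together, and for genes only peaks not intergenic or only promoter peaks). Fold changes were followed for the 7 tested genes and the tested peaks taken by the naming rule, 22 in all. Of their 337 alternative fold changes, 299 kept their sign and 38 changed it. The lowest adjusted p among them was 0.270 by edgeR, for the Folr2 peak in Folr1 with the replicate block. Other member peaks were followed only for whether they passed. The counts over all features moved more. The 99 peaks that passed became 19 with scaling to all tags, 65 with DESeq2, 246 without knockout replicates 1 and 2, and 65 to 123 with each library left out, the lowest without knockout replicate 3. The 33 genes became 5 with scaling to all tags, 8 with promoter peaks only, 70 without knockout replicates 1 and 2, and 20 to 42 with each library left out (20 without knockout replicate 3, 21 without wild-type replicate 3). The run with promoter peaks only used fewer peaks per gene and tested 10240 genes, against 15476 in the main run. The cause of these changes in number was not tested.

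Sign changes fell on estimates between -0.15 and 0.16. Scaling to all tags moved the median of all peaks to 0.099 and that of all genes to 0.088. It gave 0.12 at the strong Cd163 peak, 0.066 at Stab1 exon 12, 0.026 at Lyve1 intron 3 and 0.053 for the Lyve1 sum. Without knockout replicates 1 and 2 the values were -0.0087 at the Mrc1 peak in Tmem236, 0.10 at the strong Cd163 peak, 0.028 at Stab1 exon 12, and -0.084 and -0.11 at the Cbr2 peaks in exon 8 and 1.7 kb upstream. With each library left out, the range was -0.10 to 0.074 for Mrc1, -0.081 to 0.10 for Cd163, -0.15 to 0.14 for Lyve1 and -0.0042 to 0.29 for F13a1. Among peaks it was -0.26 to 0.14 and -0.091 to 0.081 at Cd163, -0.14 to 0.094 at Stab1 exon 12, and -0.30 to 0.37 at the Stab1 promoter. It was -0.23 to 0.11, -0.15 to 0.28 and -0.37 to 0.015 at the Lyve1 peaks, -0.022 to 0.26 at F13a1 and -0.039 to 0.16 at Cbr2 exon 8. Other estimates kept their sign but moved by over 1.5 times. Without knockout replicate 4, Stab1 had 0.065, Cbr2 0.060, the Stab1 peak at the Nisch transcript end 0.26 and the Cbr2 peak 16.3 kb upstream 0.14. Stab1 also had 0.074 without wild-type replicate 3, 0.072 without knockout replicate 1, and 0.20 and 0.19 without wild-type replicate 1 and knockout replicate 3. Cbr2 had 0.061 without wild-type replicate 4, the Stab1 peak 0.28 without wild-type replicate 3, and the Mrc1 promoter -0.37 without knockout replicate 3. The Cbr2 peak 1.7 kb upstream ranged from 0.017 to 0.38 over the libraries left out, and the Mrc1 peak in Tmem236 from 0.00058 to 0.10.

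Same-numbered libraries of the genotypes correlated over genes by 0.014, 0.093, -0.024 and 0.19 in their deviations from the group means. Wild-type replicates 2 and 4 correlated best with their own number, and wild-type replicates 1 and 3 did not. The labels do not say whether the number pairs libraries, and these correlations cannot decide it. With the replicate block 140 peaks and 38 genes passed, and 0 of the members. The 26 tested peaks held 1 to 176 tags per library, and 6 of their intervals reached past 2-fold.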
